A study of Homo sapiens with 4 samples.

Results

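The 34 genes described here encode the enzymes and carriers of glycolysis and of the pentose phosphate pathway. They were chosen by pathway, with earlier results of these data known. Their symbols were matched through Ensembl identifiers to the rows of a table of 58735 genes. All 34 were found. RNA was sequenced from 4 libraries labelled NB4, a human line derived from acute promyelocytic leukemia. Control cells were untreated (2 libraries), and the others had received GNE-987 at 25 nM over 24 h (2 libraries). The compound is a degrader that joins a ligand of BET bromodomain proteins to a ligand of a ubiquitin ligase. The controls are labelled as having had no treatment. No source used here says whether the libraries of a group came from separate cultures, so P values measure the spread between these libraries, which may be technical. With 2 libraries in each group, that spread is poorly known.

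The marker genes go against the cell line label in part. MPO, the myeloperoxidase of promyelocyte granules, was at 0.0246 and 0 FPKM in controls and at 11.8 and 11.3 FPKM after GNE-987. FPKM is a fragment count divided by gene length and by a library total. The granule protease gene CTSG was at 0 in all 4 libraries. SPI1, a transcription factor of the myeloid lineage, was at 7.52 and 5.68 FPKM in controls and at 4.80 and 3.23 FPKM after treatment. GATA1, the erythroid and megakaryocytic transcription factor, was at 124 and 122 FPKM in the controls and at 15.1 and 12.5 FPKM after treatment. The 10 promyelocyte and granulocyte markers summed to between 11.2 and 12.9 FPKM in controls and to between 37.3 and 39.0 FPKM after treatment. The 11 erythroid markers summed to between 323 and 324 FPKM in controls and to between 335 and 386 FPKM after treatment. The 3 T cell markers summed to between 15.3 and 16.2 FPKM in controls and to between 20.5 and 21.5 FPKM after treatment, nearly all of it CD3D, with CD2 at 0 in every library. The 3 B cell markers summed to between 0.936 and 0.950 FPKM in controls and to between 22.1 and 23.7 FPKM after treatment, nearly all of it CD79A. The libraries are therefore called libraries labelled NB4. The part of these markers in the results was not tested, and in bulk RNA fewer cells of a type and less RNA per cell cannot be told apart.

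Glycolysis splits glucose into pyruvate in the cytosol. A preparatory phase spends ATP to make triose phosphates, and a payoff phase recovers ATP and NADH from them. Lactate dehydrogenase then restores NAD+ so that the payoff phase can go on. The pentose phosphate pathway branches off at glucose 6-phosphate and supplies NADPH and the ribose of nucleotides. Most steps have several isozymes from separate genes, and leukemic and other dividing cells are known for high glucose use. GAPDH, the payoff enzyme that makes NADH, is widely used as a reference gene for qRT-PCR, and it was the reference in the qRT-PCR of this study.

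The promoters of GAPDH, ALDOC, LDHA and HK2 are shown because these genes stand at different places in the comparison: the reference gene, a gene called higher, a gene with a lower level after treatment, and the tested gene with the lowest log2 fold change. The sequences are from RefSeq on GRCh38.p14 and run 5′ to 3′ on the strand of the gene. Each covers 300 bases around a RefSeq start of the gene, most of them upstream of that start. The capitals mark CACGTG, the palindromic E-box that MYC and related proteins recognise. The GAPDH window is chr12:6535014-6535313 on the plus strand, the ALDOC window chr17:28576846-28577145 on the minus strand, the LDHA window chr11:18394313-18394612 on the plus strand and the HK2 window chr2:74833877-74834176 on the plus strand. The GAPDH window lies inside the annotated gene, which begins at chr12:6534512, and so is not at its first annotated start. Windows of some other genes, GPI and PGAM1 among them, also lie inside the gene.
GAPDH: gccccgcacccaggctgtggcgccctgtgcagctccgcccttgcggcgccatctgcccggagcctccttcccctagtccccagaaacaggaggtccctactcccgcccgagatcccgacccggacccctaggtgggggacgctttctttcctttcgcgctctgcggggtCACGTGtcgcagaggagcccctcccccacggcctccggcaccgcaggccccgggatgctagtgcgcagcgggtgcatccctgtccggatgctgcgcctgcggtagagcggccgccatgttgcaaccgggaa
ALDOC: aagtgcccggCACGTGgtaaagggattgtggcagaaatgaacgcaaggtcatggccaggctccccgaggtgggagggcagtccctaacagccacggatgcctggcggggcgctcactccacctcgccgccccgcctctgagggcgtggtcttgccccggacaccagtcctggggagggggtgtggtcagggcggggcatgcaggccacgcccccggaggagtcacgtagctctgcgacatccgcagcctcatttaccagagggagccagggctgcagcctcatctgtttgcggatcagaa
LDHA: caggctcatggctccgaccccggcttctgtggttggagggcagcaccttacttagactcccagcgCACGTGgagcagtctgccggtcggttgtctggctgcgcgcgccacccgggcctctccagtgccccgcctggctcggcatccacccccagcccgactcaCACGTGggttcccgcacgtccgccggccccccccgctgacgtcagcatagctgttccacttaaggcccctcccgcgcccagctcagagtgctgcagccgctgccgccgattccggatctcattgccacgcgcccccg
HK2: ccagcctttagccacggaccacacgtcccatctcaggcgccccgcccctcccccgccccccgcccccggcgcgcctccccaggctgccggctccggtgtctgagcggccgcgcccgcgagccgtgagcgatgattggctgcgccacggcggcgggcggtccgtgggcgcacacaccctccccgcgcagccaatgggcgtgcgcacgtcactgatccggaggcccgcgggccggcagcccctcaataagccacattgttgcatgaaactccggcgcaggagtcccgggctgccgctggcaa
The GAPDH and ALDOC windows hold 1 E-box each, the LDHA window holds 2, and the HK2 window holds none. A promoter was found for 31 of the 34 genes, all but SLC2A3, PFKFB2 and SLC16A1. CACGTG was in 4 of the 31 (12.9%), the fourth being PKLR with 1, against 7.26% of all 35116 promoters of the same length. GCGTG, a core of hypoxia response elements searched on both strands and not contained in CACGTG, was in 14 of the 31 (45.2%) against 36.5%. TATAAA, searched on both strands, was in 2 of the 31 (6.45%) against 11.5%. The median GC content was 68.7% for the 31 promoters and 58.7% for all promoters. These matches describe the letters of the windows only.

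The depth and the scaling of the libraries bear on every level given here. Whole reads, worked back from how low FPKM values step, came to 19309615 and 19115240 on genes for the controls and to 12346687 and 12849840 in the GNE-987 libraries. The FPKM values were made with totals of 23024012 and 22120718 for controls and of 8360488 and 8826052 for GNE-987, so 1 read was worth 2.75 and 2.61 times as much in the GNE-987 libraries as in control replicate 1. Genes of the mitochondrial genome took 3.78% and 4.57% of the reads in controls and 15.7% and 15.3% after GNE-987. The part of this difference in the results was not tested. Under the deposited scaling the median log2 fold change of all 16668 tested genes was 0.17. It was −0.57 when libraries were scaled to their total reads, −0.24 after quantile normalization and −1.23 when each library was given the same sum of FPKM.

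Among the 34 genes, levels spread from 0 to 1501 FPKM. In the control libraries GAPDH and ENO1 were the most abundant, followed by TPI1 and LDHA. In the GNE-987 libraries the order began with GAPDH, ENO1 and TPI1, followed by PGD. Control levels of GAPDH (398 and 432 FPKM) and ENO1 (385 and 430 FPKM) overlapped, so the order of these neighbours is not beyond their spread. After treatment PKM (174 and 178 FPKM) and PGK1 (171 and 174 FPKM) were similarly close. A gene was tested when its mean over the 4 libraries was at least 0.5 FPKM, which 33 of the 34 reached, and was called when its unadjusted limma P was under 0.05 and its level at least doubled or halved, that is, with a log2 fold change past 1 or −1. By this rule 9 of the 33 were higher after GNE-987 and 4 were lower, while 33.6% of all tested genes were called higher and 24.9% lower. The 9 higher genes were ALDOA, ALDOC, TPI1, GAPDH, ENO1, ENO2, PKM, BPGM and PGD. The 4 lower genes were HK2, PFKFB2, PFKFB4 and RPE. The other 20 passed neither bound, although 29 of the 33 had a Benjamini-Hochberg adjusted limma P value under 0.05. The shares called, 9 and 4 of 33, were near or under those of all tested genes. The median log2 fold change was 0.76 over the 33 genes, which is 0.59 above the median of all tested genes, and 10 of the 33 were below 0.

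**Figure D1:**
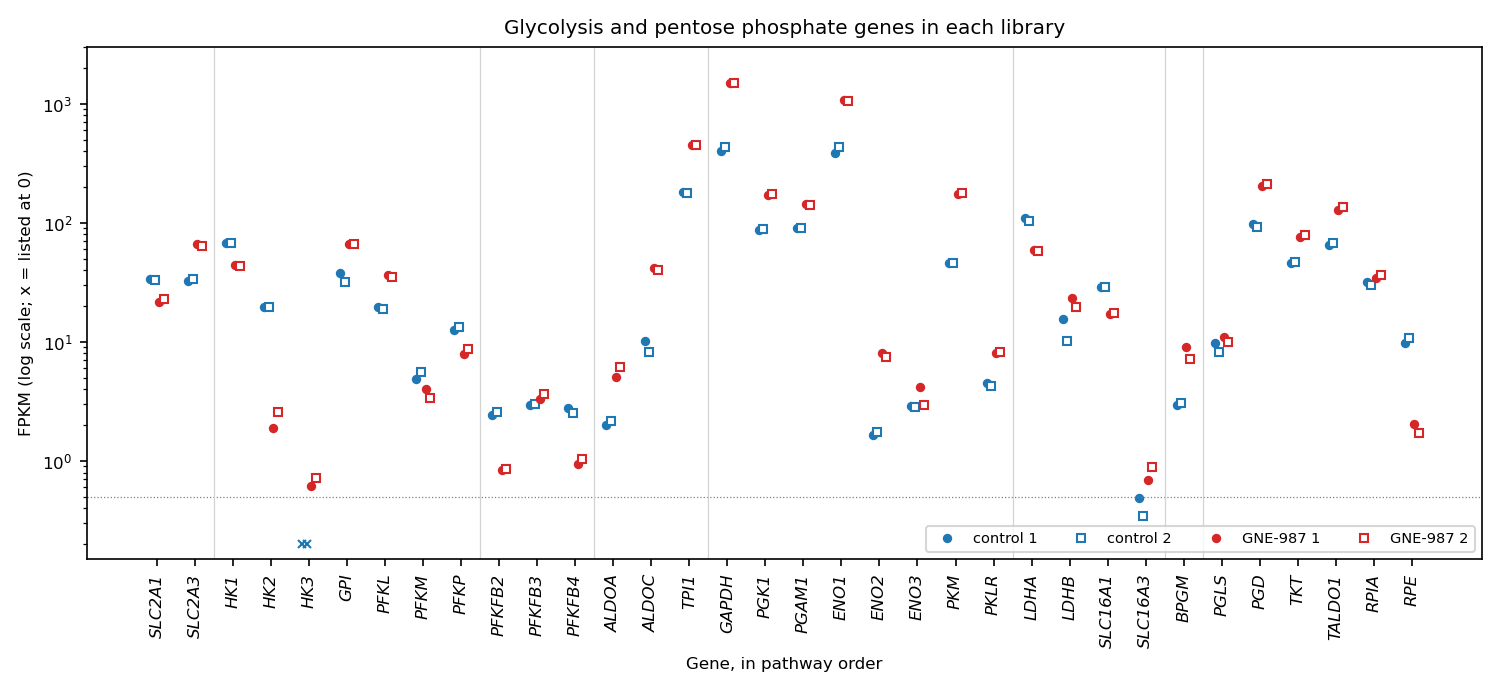
FPKM of each of the 34 genes on a log axis, in pathway order, with 1 point for each of the 4 libraries (blue, control; red, GNE-987), crosses for values listed at 0, vertical lines between phases of the pathway and a dotted line at 0.5 FPKM. GAPDH and ENO1 stand highest in every library, and of the tested genes HK2 and RPE have the GNE-987 points farthest below their control points.

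The counts depended on how the libraries were scaled. Of the calls over all tested genes, 57.5% were higher under the deposited scaling, 43.7% after quantile normalization, 38.5% with total reads and 27.5% with equal sums of FPKM. For the 33 genes, 5 were called higher and 6 lower after quantile normalization, 4 and 10 with total reads, and 0 and 14 with equal sums. HK2, PFKFB2, PFKFB4 and RPE were called lower under all 4 scalings. ALDOC, ENO2 and PKM were above 0 under all 4 and were called higher under 3 of them, all but the equal sums. HK1 and LDHA were called lower under 3, all but the deposited scaling. SLC2A1, HK1, PFKM, PFKP, LDHA and SLC16A1, with the 4 called genes, made up the 10 genes that were under 0 under all 4. The remaining 20 genes, GAPDH among them, took both signs.

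**Figure D2:**
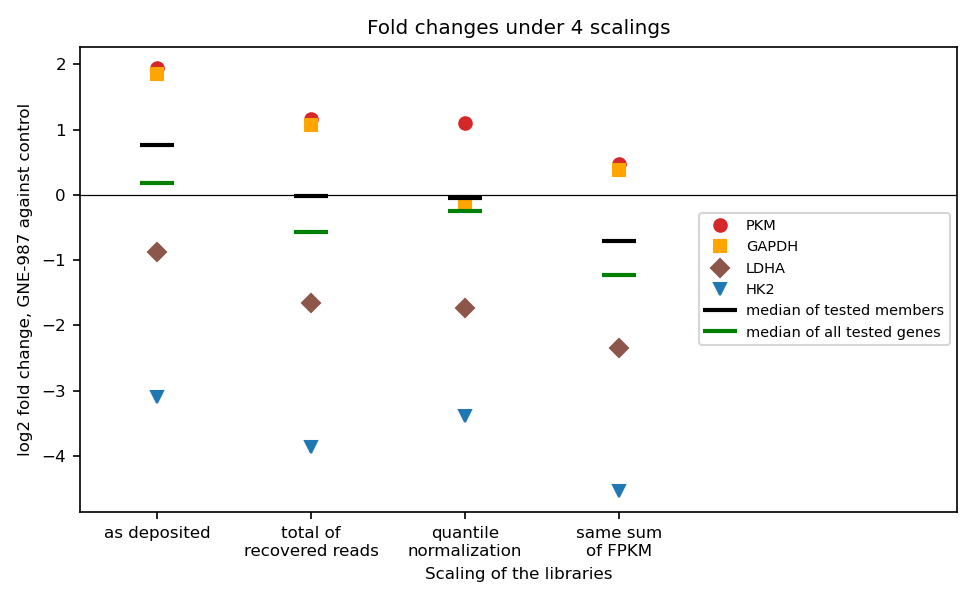
Log2 fold change after GNE-987 (vertical axis) under 4 scalings of the libraries (horizontal axis: as deposited, total reads, quantile normalization, equal sums of FPKM), with points for PKM, GAPDH, LDHA and HK2 and bars for the medians of the 33 genes (black) and of all tested genes (green). HK2 and LDHA stay under 0 and PKM above 0 throughout, and the GAPDH point lies at 1.85, 1.07, −0.11 and 0.38 in turn.

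Glucose enters the cell through the carriers SLC2A1 (GLUT1) and SLC2A3 (GLUT3). SLC2A1 was at 33.6 and 32.9 FPKM in controls and at 21.5 and 22.9 FPKM after GNE-987, a log2 fold change of −0.58 (SE 0.0534). SLC2A3 was at 32.7 and 33.7 FPKM in controls and at 66.7 and 63.7 FPKM after GNE-987, a log2 fold change of 0.97 (SE 0.0478). Neither passed the fold-change bound, and SLC2A3 was at −0.50 with equal sums of FPKM. The groups did not overlap for either carrier, which carries little weight with 2 libraries in each group. The order of the carriers turned from near equality to an excess of SLC2A3. SLC2A1 held 50.7% and 49.4% of the FPKM of the pair in controls and 24.4% and 26.4% after treatment.

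Hexokinases trap glucose as glucose 6-phosphate. HK2, the inducible hexokinase of many tumors, lies at chr2:74834127-74893359 and was at 19.8 and 19.7 FPKM in controls and at 1.89 and 2.58 FPKM in the GNE-987 libraries. Its mean was 8.84-fold lower after treatment, with a log2 fold change of −3.10 (SE 0.166, limma, adjusted P = 0.00041), from 2765 and 2644 reads in controls and 96 and 138 reads after treatment. This was the lowest fold change of the 33 tested genes. HK1, the hexokinase of most tissues, was at 67.9 and 67.8 FPKM in controls and at 44.5 and 43.5 FPKM after treatment, a log2 fold change of −0.62 (SE 0.0388) that missed the bound and was past it under the other 3 scalings. HK3, known from myeloid cells, was listed at 0 in both controls and at 0.618 and 0.723 FPKM after treatment, from 17 and 21 reads, and was not tested. The 3 hexokinases together summed to 87.7 and 87.5 FPKM in controls and to 47.0 and 46.8 FPKM after GNE-987.

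The next enzymes of the preparatory phase had smaller log2 fold changes than HK2, of both signs. GPI, the isomerase that makes fructose 6-phosphate, was at 37.8 and 31.8 FPKM in controls and at 67.0 and 65.8 FPKM after treatment, a log2 fold change of 0.94 (SE 0.0983). Phosphofructokinase, the committed step of glycolysis, has a liver (PFKL), a muscle (PFKM) and a platelet (PFKP) form. PFKL was at 19.5 and 19.0 FPKM in controls and at 36.2 and 35.1 FPKM after treatment, a log2 fold change of 0.88 (SE 0.0463). PFKM was at 4.93 and 5.55 FPKM in controls and at 4.04 and 3.38 FPKM after treatment, a log2 fold change of −0.49 (SE 0.132). PFKP was at 12.7 and 13.2 FPKM in controls and at 7.91 and 8.76 FPKM after treatment, a log2 fold change of −0.63 (SE 0.0772). No phosphofructokinase was called under the deposited scaling. With equal sums of FPKM GPI was at −0.53 and PFKL at −0.58. Under the deposited scaling PFKL was higher and PFKM and PFKP were lower in the GNE-987 libraries.

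Aldolase cleaves fructose 1,6-bisphosphate, and triose phosphate isomerase converts its products into each other. ALDOC, the aldolase best known from brain, was at 10.1 and 8.29 FPKM in controls and at 41.5 and 40.0 FPKM after treatment. Its log2 fold change of 2.14 (SE 0.113, limma, adjusted P = 0.000397) and that of ENO2, 2.13, differed by less than their errors, and were the 2 highest of the 33. ALDOA, the aldolase of muscle and of most cells, was at 2.01 and 2.16 FPKM in controls and at 5.04 and 6.19 FPKM after treatment, a log2 fold change of 1.38 (SE 0.138) that was −0.05 with equal sums of FPKM. In its annotation 54.2% of the exon bases of ALDOA are shared with other genes, and how shared reads were counted is not given in the sources used here, so its level is uncertain. TPI1, the isomerase, was at 183 and 177 FPKM in controls and at 448 and 455 FPKM after treatment, a log2 fold change of 1.32 (SE 0.039) that was −0.34 after quantile normalization and −0.15 with equal sums. The groups were apart for each of these genes, which carries as little weight as for the glucose carriers.

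Fructose 2,6-bisphosphate activates phosphofructokinase and is made and removed by the PFKFB enzymes. PFKFB2, the form best known from heart, was at 2.43 and 2.57 FPKM in controls and at 0.845 and 0.856 FPKM after treatment, a log2 fold change of −1.45 (SE 0.128, limma, adjusted P = 0.00126). PFKFB2 shares 3.10% of its exon bases with YOD1, which was at 16.4 and 18.9 FPKM in controls and at 3.54 and 3.60 FPKM after treatment. The part of shared reads in the value of PFKFB2 was not tested. PFKFB4 was at 2.77 and 2.51 FPKM in controls and at 0.940 and 1.04 FPKM after treatment, a log2 fold change of −1.33 (SE 0.137, limma, adjusted P = 0.00187). With a pseudocount of 1 FPKM in place of 0.1 these log2 fold changes were −0.92 and −0.87, inside the bound. PFKFB3, the inducible form with the highest kinase activity, was at 2.96 and 3.0 FPKM in controls and at 3.33 and 3.67 FPKM after treatment, a log2 fold change of 0.22 (SE 0.098) that was not called and that was −1.20 with equal sums of FPKM. Thus 2 of these 3 regulatory enzymes fell, from levels under 3 FPKM.

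**Figure D3:**
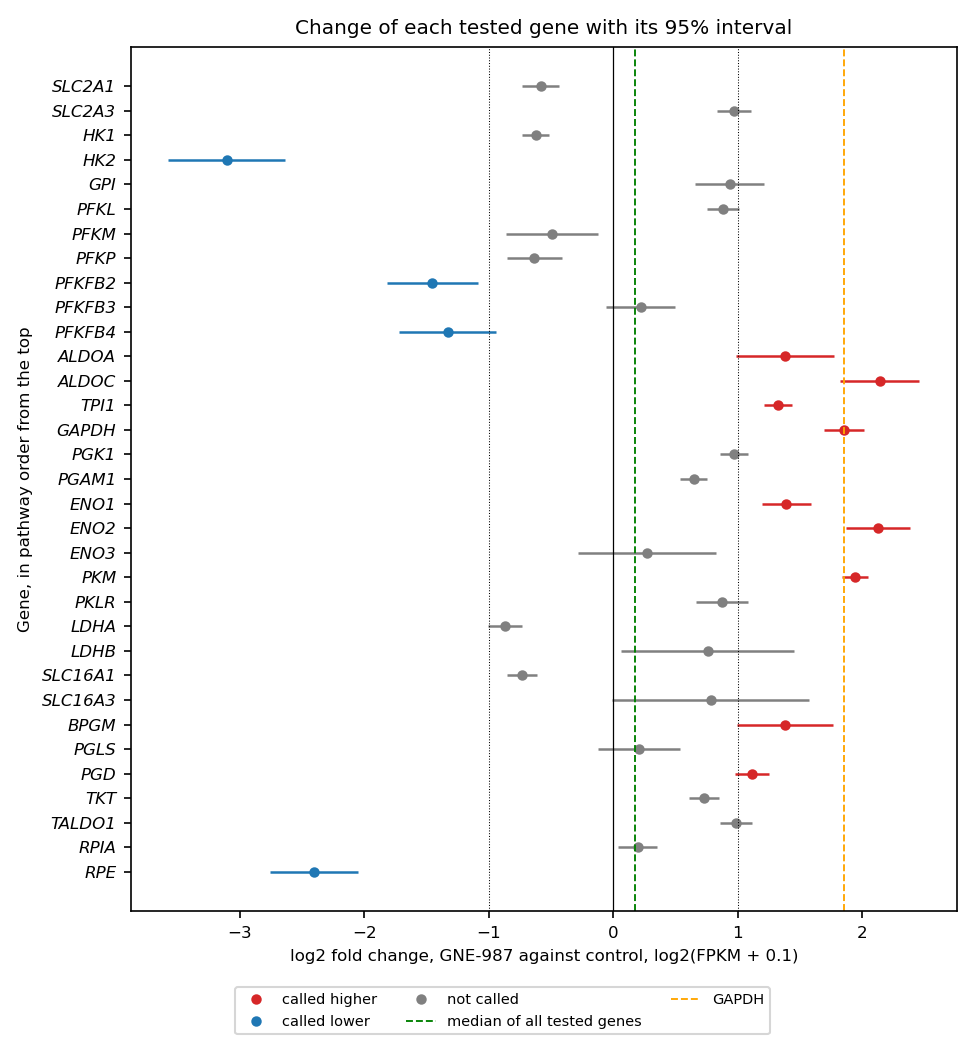
Log2 fold change after GNE-987 for the 33 tested genes on log2(FPKM + 0.1), with 95% limma intervals, in pathway order from the top. Red points were called higher (9 genes), blue points called lower (4 genes) and grey points not called (20 genes), and the dashed lines mark the median of all tested genes (0.17) and GAPDH (1.85, and −0.11 after quantile normalization).

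The payoff phase held the most abundant transcripts. Under the deposited scaling 4 of its 8 genes were called higher and 0 lower, against 33.6% and 24.9% of all tested genes. With equal sums of FPKM ENO3 was called lower (−1.16). GAPDH, at chr12:6534512-6538374, was at 398 and 432 FPKM in controls and at 1501 and 1499 FPKM after GNE-987. The log2 fold change was 1.85 (SE 0.0564, limma, adjusted P = 0.000178) under the deposited scaling and −0.11 after quantile normalization. In recovered reads GAPDH had 27323 and 28499 in controls and 37412 and 39449 after treatment, which is 0.141% and 0.149% of the reads on genes in controls and 0.303% and 0.307% after treatment. Annotated pseudogenes of GAPDH number 65, and their reads came to between 0.411% and 0.978% of those of the parent gene. An antisense gene that shares 17.6% of the exon bases of GAPDH was listed at 0 in every library.

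PGK1 and PKM are the 2 ATP-making enzymes of glycolysis, and PGAM1 and the enolases act between them. PGK1 was at 86.6 and 89.5 FPKM in controls and at 171 and 174 FPKM after treatment, a log2 fold change of 0.97 (SE 0.0394) just inside the bound. PGAM1 was at 91.0 and 91.3 FPKM in controls and at 145 and 141 FPKM after treatment, a log2 fold change of 0.65 (SE 0.0373). PKM, the pyruvate kinase of most proliferating cells, was at 45.9 and 45.8 FPKM in controls and at 174 and 178 FPKM after treatment, a log2 fold change of 1.94 (SE 0.0371, limma, adjusted P = 0.000109). The change of PKM was thus close to that of GAPDH, and those of PGK1 and PGAM1 were smaller. The annotated pseudogenes of PKM had 0 and 1 reads in controls and 125 and 123 after treatment, or at most 1.00% of the reads of PKM. PKLR, the pyruvate kinase of liver and red cells, was at 4.54 and 4.24 FPKM in controls and at 8.04 and 8.19 FPKM after treatment, a log2 fold change of 0.87 (SE 0.0737). The erythroid marker sums stand beside this value, and 17.6% of the exon bases of PKLR are shared with HCN3.

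The enolases make phosphoenolpyruvate. ENO1, the ubiquitous form, was at 385 and 430 FPKM in controls and at 1075 and 1062 FPKM after treatment, a log2 fold change of 1.39 (SE 0.0685) that was −0.57 after quantile normalization and −0.08 with equal sums of FPKM. ENO2, the neuronal form, was at 1.65 and 1.74 FPKM in controls and at 8.05 and 7.49 FPKM after treatment, a log2 fold change of 2.13 (SE 0.0911, limma, adjusted P = 0.000274). ENO3, the muscle form, was at 2.89 and 2.86 FPKM in controls and at 4.15 and 2.93 FPKM after treatment, a log2 fold change of 0.27 (SE 0.196) that was not called and that was −1.16 with equal sums. ENO1 held at least 98.8% of enolase FPKM in every library.

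At the lactate end, the level after treatment was lower for the more abundant form of each pair and higher for the less abundant one, and none of the 4 genes was called under the deposited scaling. LDHA, the subunit that favors lactate, was at 110 and 104 FPKM in controls and at 59.4 and 57.5 FPKM after treatment, a log2 fold change of −0.87 (SE 0.0476). It was called lower after quantile normalization (−1.73), with total reads (−1.65) and with equal sums of FPKM (−2.34). LDHB, the subunit best known from heart, was at 15.6 and 10.2 FPKM in controls and at 23.6 and 19.5 FPKM after treatment, a log2 fold change of 0.76 (SE 0.246) that was −0.019 with total reads and −0.70 with equal sums. The control libraries of LDHB stood well apart from each other, and 33.4% of its exon bases are shared with another annotated gene. SLC16A1 (MCT1), a carrier of lactate, was at 28.9 and 28.8 FPKM in controls and at 17.2 and 17.3 FPKM after treatment, a log2 fold change of −0.73 (SE 0.0431), and was called lower with total reads (−1.51) and equal sums (−2.20). SLC16A3 (MCT4), the lactate exporter of strongly glycolytic cells, was under 1 FPKM throughout, at 0.488 and 0.347 FPKM in controls and at 0.691 and 0.882 FPKM after treatment. Its log2 fold change was 0.78 (SE 0.279; limma, adjusted P = 0.0646), and it was −0.92 after quantile normalization and −0.47 with equal sums.

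BPGM makes 2,3-bisphosphoglycerate, the regulator of oxygen binding in red cells. BPGM was at 2.96 and 3.10 FPKM in controls and at 9.00 and 7.18 FPKM after treatment, a log2 fold change of 1.38 (SE 0.137) that was −0.06 with equal sums of FPKM. The erythroid transcripts HBG1 and HBG2 were called higher as well, and GATA1 and KLF1 were called lower, and none of these 4 changed sign under the other scalings. They were picked from the marker list after their values were seen, and their part in the value of BPGM was not tested.

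In the pentose phosphate pathway 1 of 6 genes was called higher and 1 lower, against 33.6% and 24.9% of all tested genes. PGD, which makes NADPH and ribulose 5-phosphate, was at 98.5 and 92.7 FPKM in controls and at 204 and 210 FPKM after treatment, a log2 fold change of 1.12 (SE 0.0494) that was −0.36 with equal sums of FPKM. RPE, the epimerase that turns ribulose 5-phosphate into xylulose 5-phosphate, lies at chr2:210002565-210022260 and was at 9.84 and 10.8 FPKM in controls and at 2.04 and 1.70 FPKM after treatment. Its mean was 5.51-fold lower, a log2 fold change of −2.40 (SE 0.124, limma, adjusted P = 0.000382), from 798 and 839 reads in controls and 60 and 53 reads after treatment. RPE shares 23.8% of its exon bases with KANSL1L, whose FPKM was 1.22 and 1.12 in controls and 1.76 and 2.07 after treatment. RPIA, the isomerase that makes ribose 5-phosphate from the same substrate, was at 31.8 and 30.1 FPKM in controls and at 34.4 and 36.4 FPKM after treatment, a log2 fold change of 0.20 (SE 0.0567) that was −1.27 with equal sums. Per length, RPIA was 3.23 and 2.79 times as abundant as RPE in controls and 16.9 and 21.4 times after GNE-987, a ratio that stays the same when a library is multiplied by 1 factor.

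The transferases that link the pentose pathway back to glycolysis were not called. TKT, the transketolase, was at 46.4 and 47.0 FPKM in controls and at 76.1 and 78.9 FPKM after treatment, a log2 fold change of 0.73 (SE 0.0416). TALDO1, the transaldolase, was at 65.6 and 68.0 FPKM in controls and at 129 and 135 FPKM after treatment, a log2 fold change of 0.98 (SE 0.0455). PGLS, the lactonase, was at 9.86 and 8.26 FPKM in controls and at 10.9 and 9.99 FPKM after treatment, a log2 fold change of 0.21 (SE 0.116) that was −1.25 with equal sums of FPKM. The gap of TALDO1 to the bound was small, and it was called when GNE-987 replicate 1 (1.02) or control replicate 2 (1.01) was left out. Likewise SLC2A3 was called without GNE-987 replicate 2 (1.00), and GPI (1.06) and LDHB (1.07) without control replicate 1.

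GAPDH was then compared with the rest of its pathway within each library. Such a ratio does not change when a library is multiplied by 1 factor, but it does change under quantile normalization, which shifts genes of different abundance by different amounts. Here limma was run on the log2 value of each gene minus the log2 value of GAPDH in the same library. Relative to GAPDH, 0 of the 32 other tested genes were called higher and 18 were called lower after GNE-987, against 16.9% and 59.6% of all other tested genes. The count of 18 of 32 is near the share of all genes. After quantile normalization, an alternative chosen after seeing the data, 5 of the 32 were called above GAPDH (PKM, ALDOC, ENO2, ALDOA and BPGM) and 6 below (HK1, HK2, PFKFB2, PFKFB4, LDHA and RPE). Under the deposited scaling the 18 comprised SLC2A1, HK1, HK2, PFKM, PFKP, all 3 PFKFB enzymes, PGAM1, ENO3, LDHA, LDHB, SLC16A1, SLC16A3, PGLS, TKT, RPIA and RPE. ENO1 was at 96.8% and 99.6% of the GAPDH level in controls and at 71.6% and 70.9% after treatment, a difference of −0.46 (95% interval −0.63 to −0.30) that was not past the bound. LDHA was at 27.5% and 24.1% of GAPDH in controls and at 3.95% and 3.84% after treatment, a difference of −2.72 (95% interval −2.96 to −2.49). HK2 was at 4.97% and 4.56% of GAPDH in controls and at 0.126% and 0.172% after treatment, a difference of −4.96 (95% interval −5.43 to −4.49). The 3 genes with a higher fold change than GAPDH were PKM, ENO2 and ALDOC, whose differences of 0.09 (95% interval −0.10 to 0.28), 0.27 (95% interval −0.01 to 0.56) and 0.29 (95% interval −0.13 to 0.70) all have intervals that hold 0. After quantile normalization these differences were 1.22, 2.07 and 2.05.

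GAPDH alone made up 21.3% and 22.5% of the summed FPKM of the 34 genes in controls and 34.1% in each GNE-987 library. The 8 payoff genes together made up 54.4% and 57.2% in controls and 70.1% and 69.8% after treatment. The 4 lactate genes held less, 8.28% and 7.46% in controls and 2.29% and 2.16% after treatment. The 6 pentose phosphate genes held 14.0% and 13.4% in controls and 10.4% and 10.7% after treatment. The 10 preparatory genes held 19.2% and 18.0% in controls and 14.9% and 15.0% after treatment. The libraries of each group lay apart for these shares, which stay the same when a library is multiplied by 1 factor. Among all tested genes, 26.7% had a higher log2 fold change than GAPDH under the deposited scaling. Among the 423 with a mean over the 4 libraries of at least 100 FPKM 40.7% did, with a median of 1.67. That mean includes the GNE-987 libraries, so genes with higher values after treatment pass this filter more easily. The 40.7% and the median therefore do not show how GAPDH compares with genes that were abundant in controls.

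Within sets of isozymes the share of each gene was compared as a share of FPKM, which is per length. Over 9 sets with 22 genes, 11 genes moved by over 10 percentage points, and 11 did with any 1 library left out. The shares within a set have a fixed sum, so these moves are not independent of each other. With 2 libraries against 2, the exact two-sided permutation test cannot go below P = 0.333, so no share could reach significance by it. HK1 held 77.4% ± 0.0287 of hexokinase FPKM in controls and 93.8% ± 1.21 after GNE-987 (SD, n = 2 in each group), while HK2 went from 22.6% ± 0.0287 to 4.77% ± 1.05. PFKL went from 51.4% ± 1.59 to 74.7% ± 0.587 of phosphofructokinase FPKM and PFKP from 34.6% ± 0.573 to 17.5% ± 1.47. PFKFB3 went from 36.7% ± 0.649 to 65.5% ± 0.616 of the PFKFB enzymes. LDHA went from 89.3% ± 2.5 to 73.1% ± 2.18 of the lactate dehydrogenases. PKM held at least 91.0%, SLC16A1 at least 95.2% and ALDOC at least 79.3% of the FPKM of their sets in every library. The share of ALDOC rests on the level of ALDOA, which is uncertain because 54.2% of the exon bases of ALDOA are shared with other genes. The exact permutation P was 0.667 for ENO1 and 0.333 for each of the other 21 genes.

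**Figure D4:**
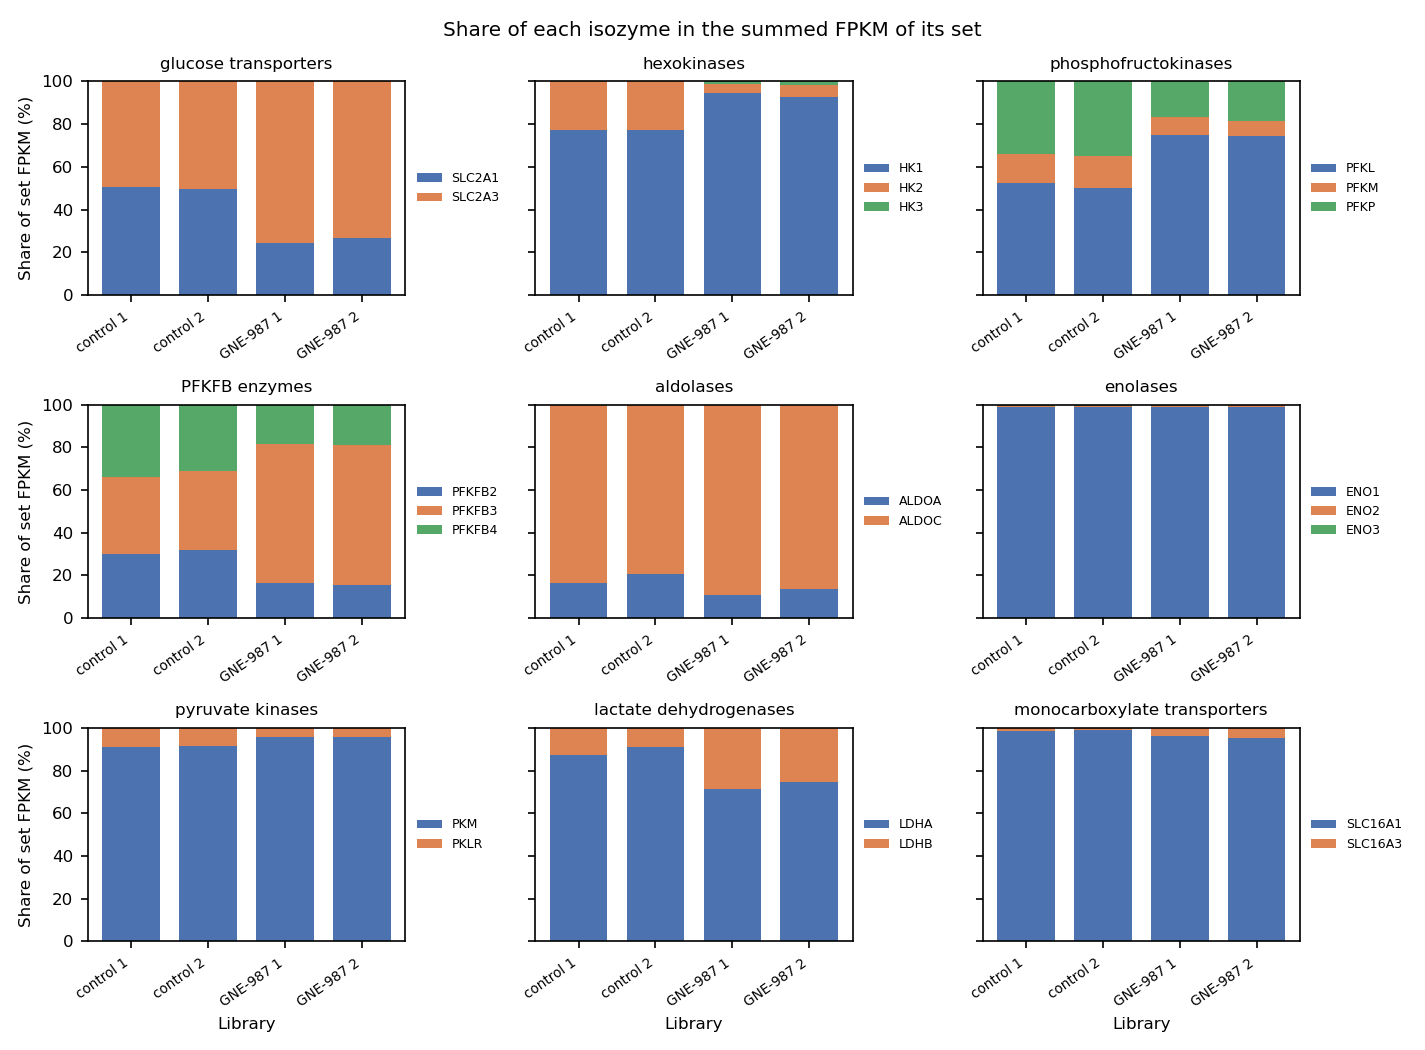
Share of each isozyme in the summed FPKM of its set, as stacked bars to 100% in each of the 4 libraries, for 9 sets. The bars of the glucose transporters, phosphofructokinases, PFKFB enzymes, hexokinases and lactate dehydrogenases change between control and GNE-987, and those of the enolases stay near 99% ENO1.

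Other genes of the same metabolism were tested in lists that were written with earlier results of these data known. The counts called in these lists stand beside 33.6% of all tested genes called higher and 24.9% called lower. Among the 6 tested of 10 other pentose phosphate genes, 1 was called higher and 1 lower, and among the 7 tested of 20 other glycolysis and gluconeogenesis genes, 1 was called higher and 2 lower. PGM2, a phosphoglucomutase, was at 21.0 and 23.5 FPKM in controls and at 10.3 and 9.33 FPKM after treatment, a log2 fold change of −1.17 (SE 0.0933). Among the 6 tested of 16 other carriers and lactate dehydrogenases, 4 were called higher and 0 lower. BSG, the chaperone of monocarboxylate carriers, was at 141 and 138 FPKM in controls and at 607 and 602 FPKM after treatment, a log2 fold change of 2.11 (SE 0.0355), while its partner SLC16A1 had a value of −0.73. Of 14 genes for the entry of pyruvate into mitochondria, 10 were tested, with 1 called higher and 4 lower. DLAT, a subunit of pyruvate dehydrogenase, fell by 1.55 (SE 0.0484) on the log2 scale. PC, pyruvate carboxylase, had a log2 fold change of 1.13 (SE 0.0687) that was −0.33 with equal sums of FPKM.

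Of 12 regulators of glycolytic genes, 11 were tested, with 3 called higher and 5 lower, against 33.6% and 24.9% of all tested genes. ARRDC4 and TXNIP, arrestin-family proteins that limit glucose uptake, had the highest changes. ARRDC4 was at 1.72 and 1.58 FPKM in controls and at 134 and 138 FPKM after treatment, a log2 fold change of 6.28 (SE 0.0652). TXNIP was at 26.2 and 26.4 FPKM in controls and at 971 and 961 FPKM after treatment, a log2 fold change of 5.19 (SE 0.0348). MYC, which activates many glycolytic genes, was at 91.5 and 90.4 FPKM in controls and at 40.3 and 39.5 FPKM after treatment, a log2 fold change of −1.19 (SE 0.0385). VHL, which targets hypoxia-inducible factors for degradation, fell by 1.56 (SE 0.0811) on the log2 scale.

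GAPDH was also set beside 16 commonly used reference genes, of which 9 were called higher and 1 lower under the deposited scaling, 4 and 3 with total reads, 1 and 2 after quantile normalization, and 0 and 6 with equal sums of FPKM. Of all 16668 tested genes, 5602 were called higher and 4148 lower under the deposited scaling. The counts were 4171 and 6664 with total reads, 4235 and 5464 after quantile normalization, and 3320 and 8751 with equal sums. RPLP0 (2.33), RPL13A (2.22), EEF1A1 (2.12), B2M (2.00) and PPIA (1.70) had log2 fold changes near or above that of GAPDH under the deposited scaling, and none differed from GAPDH past the bound. After quantile normalization RPLP0 was at 0.32, RPL13A at 0.26, EEF1A1 at −0.05, B2M at 1.39 and PPIA at −0.14, with GAPDH at −0.11. Relative to GAPDH 0 of the 16 were called higher, 6 lower and 10 neither, against 16.9% higher and 59.6% lower of all other tested genes. Among the 6 were TBP with a log2 fold change of −0.30, SDHA with −0.12, YWHAZ with 0.22 and HPRT1 with 0.34, which were named after their values were seen.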

How the data were processed

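RNA-seq of 4 libraries labelled NB4, 2 control and 2 GNE-987, was analysed. The deposited values are FPKM per gene and library, which the authors made from filtered reads mapped with HISAT2 2.0.5 to hg38, per the submitters' processing notes. The authors used DESeq2 for their own test, which was not run here because FPKM are not counts. The program that counted reads and its annotation are not given in the sources used here. Positions and symbols are from GENCODE release 44 on hg38. The number of unused per-sample columns was 0.

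Genes at a mean of 0.5 FPKM or more (16668) were compared on log2(FPKM + 0.1) by limma 3.58.1 (R 4.3.3; empirical Bayes, intensity trend). P values are two-sided, and adjustment is by Benjamini-Hochberg over all of these genes. The 95% intervals are limma's. A recovered read counted as whole within 0.01. At GENCODE exon lengths 53.0% of 32895 genes above 0 came out whole, 15380 did at another length and 84 did not. Recovered reads per library give the depth, and counting error is smallest for abundant genes. The steps were tested on simulated data.

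The 34 genes and the other lists were chosen with earlier results of these data known. All 34 are named. From the other lists genes are named that were called with a mean of at least 10 FPKM, at most 6 a list by size of change, plus MPO, SPI1 and GATA1. Some genes that this rule covers are not reported here. CTSG, KLF1, HBG1, HBG2, CD3D, CD2 and CD79A were chosen for naming with their values in view. Settings varied 1 at a time were the pseudocount (1 or 0.01), the filter (none, or a mean of 1 FPKM), the scaling (quantile, median-ratio, total reads, equal sums of FPKM), the call (by adjusted P, or by limma's test of a fold change over 2), a replicate block, and each library left out. Quantile normalization of the values relative to GAPDH was added after seeing the data.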

Additional observations from a re-analysis of the deposited data

How the results depend on the processing

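Of the 33 tested genes, 20 took both signs over the 4 scalings. After quantile normalization the median log2 fold change of the 33 genes was −0.052, that of TPI1 −0.34, of GAPDH −0.11 and of ENO1 −0.57, and 5 of the 33 were called higher. Relative to GAPDH, 5 of the 32 were then called above and 6 below, and 4504 and 5150 of all genes, in an alternative chosen after seeing the data. With equal sums of FPKM the median was −0.70, with 0 called higher and 14 lower, and the log2 fold changes were −1.20 for PFKFB3, −0.046 for ALDOA, −0.15 for TPI1, −0.080 for ENO1, −1.16 for ENO3, −0.062 for BPGM, −1.25 for PGLS, −0.36 for PGD and −1.27 for RPIA. Over all genes 3320 were then called higher and 8751 lower. With total reads the median was −0.019, with 4 called higher and 10 lower, and 6664 of all genes were lower. With a pseudocount of 1, 2 of the 33 were called lower, and 784 of all genes were called above GAPDH. Without a filter 8757 of all genes were called higher and 18261 below GAPDH, and 1 of the 34, HK3, was above GAPDH. The causes were not tested, apart from the rescaling itself and, without a filter, the larger number of genes.

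Leaving out 1 library gave a median from 0.65 to 0.90, 10 to 11 of the 33 called higher, 4 called lower, 0 above GAPDH and 16 to 21 below it. Over all genes 4978 to 5374 were called higher, 3714 to 4101 lower, 2555 to 2980 above GAPDH and 9383 to 10181 below it. No call of GNE-987 against control changed with a pseudocount of 0.01, a mean of at least 1 FPKM or adjusted P values. None changed in the test against a fold change of 2. This holds for the genes of the 33 that each setting tested. Median-ratio scaling could change no call, because the deposited totals already matched median-ratio totals up to a factor of 1.13 in every library. Relative to GAPDH, where 18 were called below, 17 were with a pseudocount of 0.01 (without SLC16A3) and 15 in the test against a fold change of 2 (without TKT, LDHB and SLC16A3). With 2 libraries in a group, a library left alone is assumed to vary like the other group. Over the tested genes, deviations of replicates with the same number were nearly uncorrelated between the groups (correlation 0.00537). Whether the samples were paired in culture cannot be told from this value. With the replicate block 5667 of all genes were called higher and 4186 lower, 9 and 4 of the 33, and no call of GNE-987 against control among the 33 changed. Relative to GAPDH 17 were called below with the block, without SLC16A3.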
